A study of Mus musculus with 44 samples.

Results

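The 37 genes of the mouse mitochondrial genome (chrM) were examined in RNA of the whole brain and of the liver. They were taken by their identifiers on chrM in GENCODE M21 (build GRCm38), where their symbols begin with mt-, and all 37 were among the 54446 genes of the count table. They comprise 13 mRNAs, 2 rRNAs and 22 tRNAs, each with a single exon, so no introns or splicing bear on them. Male C57BL/6 mice had been given a control diet (CD) rich in carbohydrate, or a ketogenic diet (KD). In the KD nearly all calories other than protein come from fat. At 12 months there were 5 brains from CD-fed mice and 7 from mice given the KD freely for one week. At 26 months there were 8 brains and 8 livers from CD-fed mice, and as many of each after a cyclic KD. The cyclic KD, which the paper calls one-year, alternated weekly with the CD from 12 to 26 months of age. Tissue was taken in a week of CD feeding, so that none of the 26-month mice was eating the KD when sampled. The labels do not say whether a brain and a liver of the same number came from one mouse. They give no genotype.

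Mitochondrial DNA is a small circle that is read as long transcripts from both strands, and the tRNAs between the other genes mark where the transcripts are cut. Its mRNAs encode subunits of the respiratory chain and of ATP synthase, while every factor that copies, transcribes and processes it comes from nuclear genes. Brain and liver are both rich in mitochondria, and pieces of mitochondrial DNA have also been copied into the nuclear genome in the course of evolution.

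Total counts were 7447742 to 12744415 in the brains and 6879726 to 12682087 in the livers. The tissue labels were checked with marker genes. The summed level of 6 neuronal markers was 3284 to 5371 CPM (counts scaled to a common library size) in the brains and 8.40 to 36.7 CPM in the livers, and that of 8 hepatocyte markers 15070 to 38723 CPM in the livers and 3.05 to 732 CPM in the brains. Some libraries stood apart. The predicted gene Gm10800 took more than 0.01% of counts in 6 livers (CD replicate 1 and KD replicates 10, 11, 14, 15 and 16, from 1.23% to 2.39%) and more than 0.5% in 4 brains of 26 months (CD replicate 5 and KD replicates 12, 13 and 14). All 16 brains of 26 months, at 0.0347% to 1.22%, lay above all 12 brains of 12 months, at 4.62e-04% to 0.0017%. Results that rest on these libraries are given with and without them.

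Of the 37 genes, 7 mRNAs held 97.9% of the mitochondrial counts. They were mt-Nd1, mt-Nd2, mt-Nd4, mt-Nd5 and mt-Nd6, subunits of complex I, mt-Co1, the catalytic core of complex IV, and mt-Cytb, the cytochrome of complex III. The rRNAs mt-Rnr1 and mt-Rnr2, of the small and the large mitochondrial ribosome subunit, held 1.97%, after a library preparation that removed ribosomal RNA. All tRNAs together held 0.0999%. The other 6 mRNAs were nearly absent from the table, with 268 counts over all 44 libraries for mt-Co2, 364 for mt-Co3, 280 for mt-Nd3, 153 for mt-Atp6, 9 for mt-Nd4l and 1 for mt-Atp8. These 6 encode 2 subunits of complex IV, 2 of complex I and 2 of ATP synthase.

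The genes that were counted and those that were not differ in whether their sequence also occurs in the nucleus. Between 97.6% and 99.9% of the 100-base windows of mt-Co2, mt-Atp6, mt-Co3, mt-Nd3 and mt-Nd4l were also found in annotated nuclear transcripts. The share was 60.8% for mt-Nd4, 30.8% for mt-Co1 and 3.19% for mt-Nd2, and 0% for mt-Nd1, mt-Nd5, mt-Nd6, mt-Cytb and both rRNAs. These shares depend on the window. With 50 bases they were 62.2% for mt-Nd4, 51.1% for mt-Co1, 8.19% for mt-Nd2, 7.61% for mt-Nd5 and 1.04% for mt-Rnr2. They stayed at 0% for mt-Nd1, mt-Nd6, mt-Cytb and mt-Rnr1. Only mt-Atp8, with 1 count, had no window in an annotated nuclear transcript. On chrM it lies between mt-Co2 and mt-Atp6, and shares 43 bases with mt-Atp6. The copies of these neighbours, Gm28661 (chr1:24614885-24615565) and Gm10925 (chr1:24613974-24614651), also lie side by side. The nuclear sequence between these copies was not searched, so a copy of mt-Atp8 there was not looked for. Long copies of 7 of these mRNAs lie in 1 row on the minus strand of chromosome 1 (chr1:24611535-24616197, GRCm38), in the pseudogenes Gm29216, Gm28661, Gm10925, Gm28437, Gm28438, Gm10222 and Gm28439. The copies of mt-Co2 (681 bases), mt-Atp6 (678), mt-Co3 (783) and mt-Nd4l (294), and the 876 bases of mt-Nd4 in Gm28439, had 0 differences from chrM. Gm28438 differed from mt-Nd3 at 1 of 345 bases (T3C, counted from the first base of the gene).

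The copy of mt-Co1, Gm29216 (chr1:24615706-24616197), matches the last part of the gene and differed at 6 of 492 bases (T1056A, C1057T, A1059G, A1060G, C1062A and A1066T). The stretch that holds all 6 is printed from the transcripts of GENCODE M21, 5′ to 3′, with the differing bases in capitals, because it shows how short the part is in which a read could tell the gene from its copy (positions 1054 to 1173 of the gene, chrM:6381-6500, plus strand).
mt-Co1: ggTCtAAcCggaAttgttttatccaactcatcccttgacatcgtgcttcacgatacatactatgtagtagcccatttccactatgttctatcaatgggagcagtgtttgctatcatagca
Gm29216: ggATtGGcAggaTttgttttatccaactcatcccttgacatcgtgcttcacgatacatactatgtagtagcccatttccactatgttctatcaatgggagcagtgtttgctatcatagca
After the last of these differences the gene and its copy are identical to the end of the match.

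The copies themselves were counted little. Gm29216 had 29 to 81 counts per library, Gm10925 had 23 to 86 and Gm28661 had 23 to 54, and Gm10222, the copy of mt-Nd4l, had 1 to 13. The missing counts of the 6 mRNAs were thus not found under these pseudogenes. How the authors' alignment and counting treated reads that match several places is not given in the sources used here, and its part in the missing counts was not tested. For mt-Co1 and mt-Nd4 only a part of the length has no such match, so their levels per length may be understated, and levels of the 6 mRNAs are not read as expression.

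**Figure D1:**
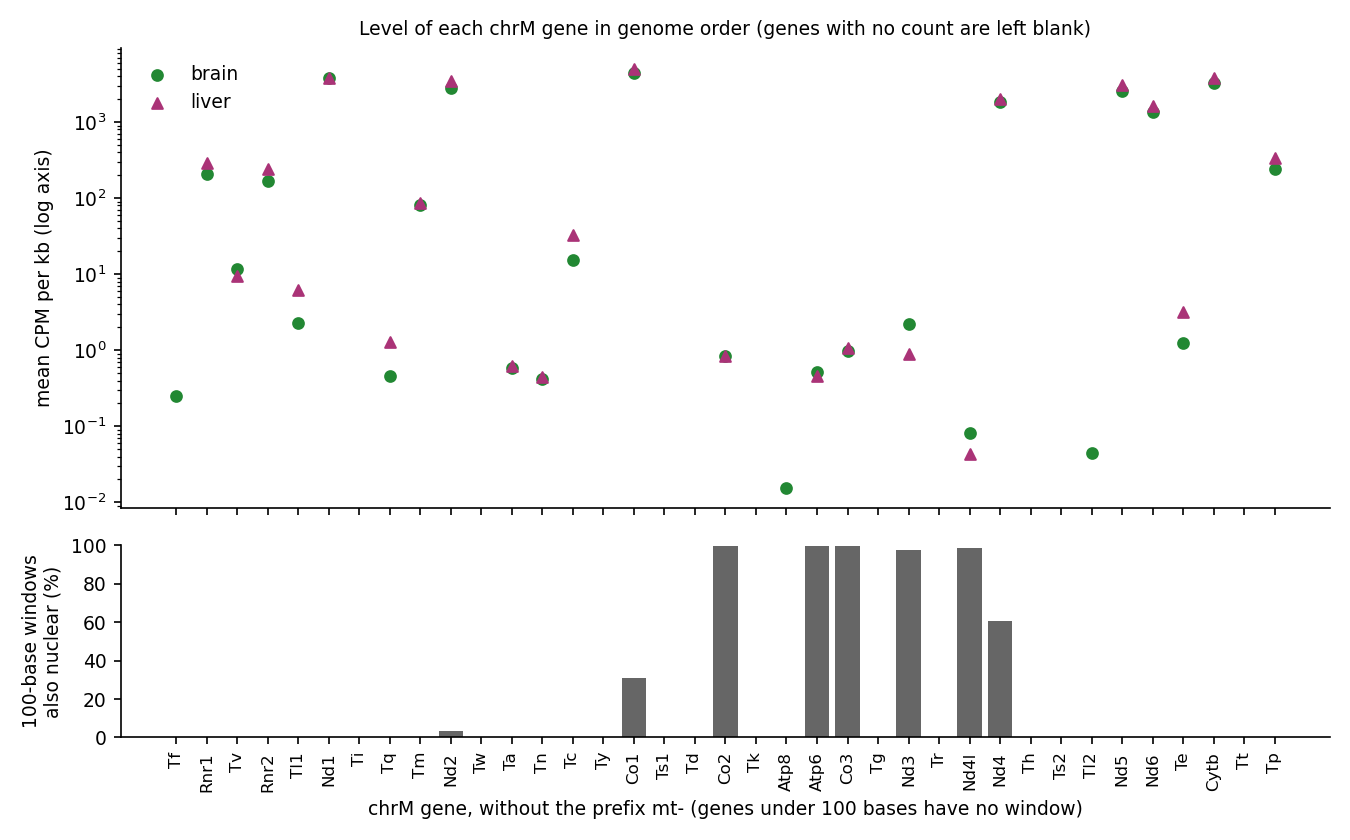
Mean level of each of the 37 chrM genes in CPM per kb of exon, on a log axis, in 28 brains (circles) and 16 livers (triangles), in the order of the genes on chrM, above the share of their 100-base windows found in annotated nuclear transcripts (bars). The 5 mRNAs with bars of 97.6% to 99.9%, and mt-Atp8, lie below 3 CPM per kb, while the other 7 mRNAs lie above 1000.

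Per length, mt-Co1 was the highest member in the brain, at 4348 ± 224 CPM per kb (SD, n = 28, of total counts). mt-Nd1 followed at 3738 ± 249, mt-Cytb at 3241 ± 166, mt-Nd2 at 2801 ± 198 and mt-Nd5 at 2556 ± 150. mt-Nd4 was at 1856 ± 118 and mt-Nd6, the only mRNA read from the minus strand, at 1362 ± 83.0. Over the brains, the range of mt-Nd4 (1645 to 2118) and that of mt-Nd6 (1208 to 1542) overlapped no other of these mRNAs, while mt-Co1, mt-Nd1, mt-Cytb, mt-Nd2 and mt-Nd5 each overlapped the next in order. In either tissue these genes were measured in the same libraries, and such ranges pool the libraries. Overlap therefore does not show that the order changed within a library, which was not compared. Of the 100-base windows of mt-Nd4 and mt-Co1, 60.8% and 30.8% also match nuclear transcripts. Their levels per length may be understated, so their ranks in either tissue are not firm. The livers spread more. There mt-Co1 was at 5028 ± 1195 CPM per kb (n = 16), mt-Nd1 at 3823 ± 945 and mt-Cytb at 3740 ± 1192, and the last pair did not differ beyond its spread. mt-Nd2 at 3472 ± 1185 and mt-Nd5 at 3027 ± 929 also lay within each other's spread, with mt-Nd4 at 1981 ± 659 and mt-Nd6 at 1633 ± 495 below them.

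The rRNAs varied widely for their level. mt-Rnr1 ran from 70.8 to 901 CPM per kb among the brains and from 54.8 to 1232 among the livers, and mt-Rnr2 from 52.7 to 681 and from 54.7 to 1032. The ratio of mt-Rnr2 to mt-Rnr1 counts stayed between 1.19 and 1.75 in all 44 libraries, so both rRNAs moved together. Ribosomal RNA had been removed on purpose, so the level of an rRNA here is not read as expression. The part of the removal in these levels was not tested.

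Only a few tRNAs were counted. Of the 22, 11 had no count in any library and 6 had fewer than 100 over all libraries, and the annotated genes are 59 to 75 bases long, shorter than the fragments of a usual RNA-seq library. The 3 that passed the filter on low counts in both tissues are shown with their anticodons in capitals (GENCODE M21, 5′ to 3′, as read on their own strand), because the calls among chrM genes fall on them. mt-Tp, the tRNA for proline, lies at chrM:15356-15422 on the minus strand, last before the control region. mt-Tm, for methionine, lies at chrM:3845-3913 on the plus strand, directly before mt-Nd2. mt-Tc, for cysteine, lies at chrM:5192-5257 on the minus strand, beside the origin of light-strand replication.
mt-Tp: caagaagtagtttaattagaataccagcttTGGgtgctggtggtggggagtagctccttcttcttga
mt-Tm: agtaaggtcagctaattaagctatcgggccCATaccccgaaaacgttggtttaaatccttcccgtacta
mt-Tc: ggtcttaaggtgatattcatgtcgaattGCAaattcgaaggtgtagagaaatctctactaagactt
Their anticodons TGG, CAT and GCA fit the amino acids in their names. mt-Tp was at 239 ± 55.6 CPM per kb in the brain and 338 ± 188 in the liver. mt-Tm was at 81.8 ± 15.1 and 86.9 ± 22.3, and mt-Tc at 15.6 ± 7.50 and 33.0 ± 13.8. mt-Tv, for valine, which lies between the rRNAs, passed the filter in the brain alone, at 11.7 ± 5.23 CPM per kb. Whether the counting used the strand of reads is not given in the sources used here, so reads of a gene and of RNA antisense to it cannot be told apart. This touches mt-Nd6, whose end shares 14 bases with mt-Nd5 on the other strand, and the minus-strand tRNAs.

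The share of all counts that fell on the 37 genes differed little among brains. It was 2.41%, 2.58%, 2.32%, 2.29% and 2.4% in the 5 CD brains of 12 months, and 2.42% to 2.61% with a median of 2.43% after the one-week KD. The older CD brains ranged from 2.44% to 2.79%, with a median of 2.56%, and those of the one-year KD from 2.49% to 2.86%, with a median of 2.58%. Each group overlapped every other one among the brains. The livers spread far more, from 1.68% to 3.97% on the CD (median 2.45%) and from 2.61% to 4.12% on the KD (median 3.04%).

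**Figure D2:**
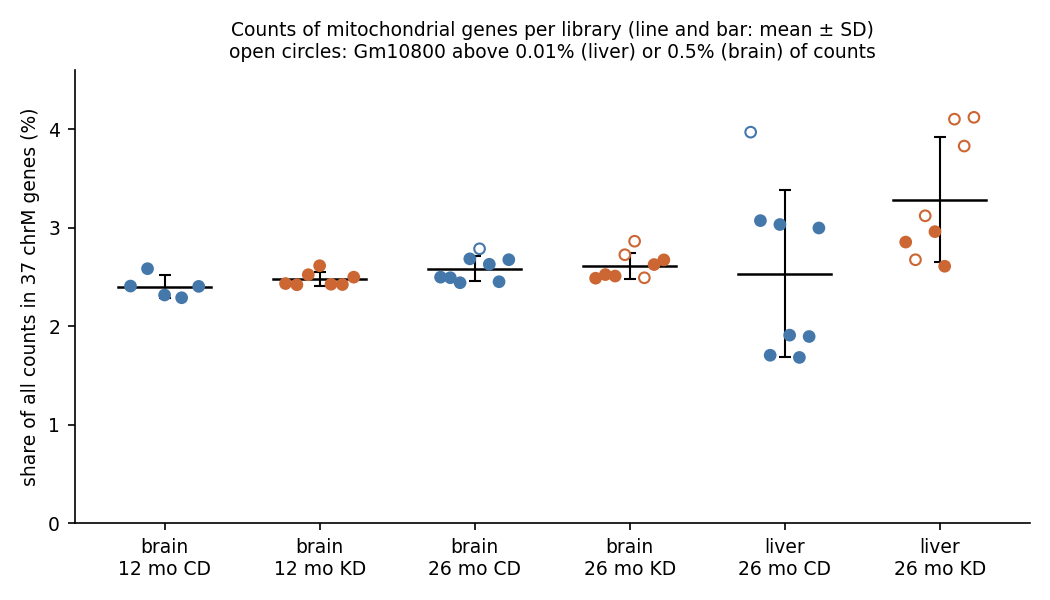
Share of all counts in the 37 chrM genes (%), 1 point per library, by tissue, age and diet, with the mean and SD of each group (n = 5, 7, 8, 8, 8 and 8 from left to right). Open circles mark libraries high in Gm10800. Brains lie between 2.29% and 2.86%, CD livers fall into 4 at 1.68% to 1.91% and 4 at 3.0% to 3.97%, and no KD liver is below 2.61%.

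Mitochondrial mRNAs had a higher mean in the one-year KD livers, but none passed the test. The direction changed without 4 CD livers described below, which had the lowest mitochondrial shares. By the quasi-likelihood F test of edgeR, 12 chrM genes passed the filter on low counts (7 mRNAs, 2 rRNAs and 3 tRNAs), and 0 of the 12 were called at an adjusted p under 0.05, beside 0% of all 18002 genes tested. At an unadjusted p under 0.05 stood 1 of the 12 and 2792 of all genes. DESeq2 and limma also called 0 of the 12. The 7 mRNAs had log2 fold changes of 0.35 to 0.50, with a median of 0.39 beside 0.04 over all genes tested. Their 95% confidence intervals ran from -0.30 to 1.19 in all, and those of mt-Nd2, mt-Nd4, mt-Nd5 and mt-Cytb held both 0 and 1. In bulk tissue, fewer cells rich in mitochondria and less mitochondrial RNA per cell cannot be told apart.

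mt-Nd2 showed the highest fold change of the mRNAs. It was at 1299 to 5704 CPM in the CD livers (median 3073), and at 3171 to 5752 CPM on the KD, with a median of 4157 (log2 difference 0.50 with an SE of 0.33, and edgeR adjusted p = 0.46). mt-Co1 ran from 4358 to 10998 CPM among CD livers and from 6381 to 12306 CPM among KD livers (0.35, SE 0.27). In both genes the lowest livers were CD livers and the highest of the CD group reached into the top of the KD group, so that the groups overlapped. The other mRNAs had log2 fold changes of 0.41 (SE 0.26) for mt-Nd1, 0.42 (SE 0.31) for mt-Nd4, 0.38 (SE 0.30) for mt-Nd5, 0.39 (SE 0.27) for mt-Nd6 and 0.36 (SE 0.31) for mt-Cytb. All 7 mRNAs were also above 0 with RLE size factors, with total counts alone and with scaling from nuclear genes alone. Scaling libraries to the summed chrM mRNAs shifted the median of all genes to -0.49. There 3 of the 7 mRNAs had a fold change above 0, and mt-Nd5, mt-Nd6, mt-Co1 and mt-Cytb fell below it, none called. These 7 make up nearly all of that sum, so this scaling sets them against one another and does not test their level.

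mt-Tm had the smallest unadjusted p of the members in the liver. Its level was 3.55 to 7.28 CPM on the CD with a median of 4.66, and 5.36 to 10.8 CPM on the KD with a median of 7.50 (log2 difference 0.60 with an SE of 0.19, and edgeR adjusted p = 0.29). KD values were mostly above those of the CD, with an overlap between 5.36 and 7.28 CPM. mt-Tp ran from 6.44 to 35.8 CPM among CD livers and from 16.7 to 62.4 among KD livers (0.76, SE 0.40), and mt-Tc from 0.923 to 3.24 and from 1.21 to 4.73 (0.45, SE 0.34). mt-Rnr1 stood at 1.02 (SE 0.73) on the log2 scale and mt-Rnr2 at 1.08 (SE 0.70).

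The liver fold changes moved with cell type markers and with Gm10800. The 4 CD livers with the lowest mitochondrial share were replicates 3, 5, 6 and 7, at 1.71%, 1.91%, 1.68% and 1.90%. Their summed Kupffer cell markers, of the resident macrophages of the liver, were at 3169, 3106, 2209 and 3151 CPM, where the remaining 4 of that diet had 123 to 750 and the KD livers 132 to 1421. Their summed hepatocyte markers were at 15070, 16781, 17594 and 21406 CPM, against 31287 to 36919 in the rest of the CD group and 22594 to 38723 on the KD. Neutrophil markers were at 138 to 1225 CPM in these 4, and at 11.6 to 18.0 CPM in the remaining CD group and 13.5 to 61.7 on the KD. All 6 Kupffer cell markers and all 4 tested neutrophil markers had a log2 fold change below 0 (medians -2.10 and -4.78), and all 8 hepatocyte markers one above 0 (median 0.27), none called. Bile duct markers (5 of 5) were also above 0 (median 2.0) and erythroid markers (5 of 5) below (median -0.93). Without the 4 livers over 2000 CPM of Kupffer cell markers, a set left out after the values were seen and which also has the lowest mitochondrial shares, the 7 mRNAs all turned to the other side of 0, at -0.18 to -0.07 with a median of -0.10 beside 0.12 over all genes, again with 0 called. mt-Tm then stood at 0.30 (SE 0.20), mt-Tp at 0.09 (SE 0.33) and mt-Tc at -0.12 (SE 0.33). Leaving out the CD livers with the lowest shares raises the CD mean by their choice. This fit therefore does not test where the difference between the diets came from.

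Among livers low in Gm10800, the mitochondrial share was 1.68% to 3.07% in 7 CD livers and 2.61% to 2.96% in 3 KD livers. Among those high in it, it was 3.97% in CD replicate 1 and 2.68% to 4.12% in 5 KD livers. Without the 6 high libraries the 7 mRNAs had log2 fold changes of 0.14 to 0.36, with a median of 0.20, and 0 were called. Leaving out 1 library at a time moved the median between 0.28, without KD replicate 14, and 0.52, without CD replicate 1.

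Nuclear genes that serve mitochondrial DNA gave no call in the liver either. Tfam, which packs mitochondrial DNA and starts its transcription, was at 31.7 ± 3.65 CPM on the KD and 25.6 ± 8.56 on the CD (SD, n = 8 each; log2 difference 0.31 with an SE of 0.18, and edgeR adjusted p = 0.42). Polrmt, the mitochondrial RNA polymerase, stood at 0.24 (SE 0.17) on the log2 scale and Twnk, the replicative helicase Twinkle, at 0.33 (SE 0.30). Of 11 genes of mitochondrial transcription 10 were above 0, with a median of 0.17, and the third of them by p was Tfb2m, a transcription initiation factor (0.28, SE 0.20). Of 13 genes of replication and nucleotide supply 6 were above 0 (median -0.02). Tk2, which phosphorylates thymidine in mitochondria, was at -0.29 (SE 0.10), the nuclease gene Mgme1 at 0.39 (SE 0.17) and Dguok, which phosphorylates deoxyguanosine, at -0.15 (SE 0.10).

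The remaining lists in the liver likewise held 0 called genes. Of 21 tested genes of RNA processing and decay 16 were above 0 (median 0.07), led by Fastkd3, Fastkd2 and Trnt1 at 0.17 (SE 0.09), 0.18 (SE 0.11) and -0.12 (SE 0.08). Of 15 genes that modify mitochondrial rRNA and tRNA 10 were above 0 (median 0.09), led by Mettl15, Nsun4 and Mrm1 at 0.30 (SE 0.15), 0.30 (SE 0.17) and -0.26 (SE 0.16). Among 10 regulators of mitochondrial biogenesis (6 above 0, median 0.17), Ppargc1a, a coactivator that drives mitochondrial and gluconeogenic genes, stood at 33.8 ± 7.03 CPM on the KD and 20.6 ± 10.1 on the CD (0.72, SE 0.27, adjusted p = 0.29 from edgeR). The nuclear receptor Esrra was at -0.31 (SE 0.10) and the deacetylase Sirt1 at 0.23 (SE 0.09). A list for mitochondrial mass held 16 genes of matrix and membrane proteins, read here as RNA alone, which does not measure that mass. Of these, 12 were above 0 (median 0.09), with Vdac2, Tomm20 and Hspe1 at -0.31 (SE 0.14), -0.14 (SE 0.09) and 0.36 (SE 0.24). All 6 tested nuclear copies were above 0 (median 0.49), as were the 7 mRNAs, with Gm29216, Gm28438 and Gm28439 at 0.55 (SE 0.24), 0.96 (SE 0.43) and 0.62 (SE 0.33).

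In the brain, one week of KD at 12 months called 0 of the 15 chrM genes tested (9 mRNAs, 2 rRNAs and 4 tRNAs), beside 0.00453% of all 22079 genes, by edgeR as by DESeq2 and limma. At an unadjusted p under 0.05 stood 1 of the 15, mt-Nd6, and 585 of all genes. mt-Nd6 was at 636, 649, 632, 662 and 686 CPM in the CD brains and at 655 to 754 CPM, with a median of 713, on the KD (log2 difference 0.11 with an SE of 0.05, and edgeR adjusted p = 1). The KD values were higher with 3 of 7 inside the CD range. The 7 mRNAs had log2 fold changes of -0.01 to 0.11 with intervals from -0.11 to 0.21 in all, so that changes larger than this were outside the intervals. mt-Tp stood at 0.17 (SE 0.13), mt-Tm at 0.10 (SE 0.15), mt-Tc at -0.00 (SE 0.38) and mt-Tv at -0.12 (SE 0.39), and the rRNAs mt-Rnr1 and mt-Rnr2 at -0.20 (SE 0.62) and -0.17 (SE 0.61).

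Shares within the mRNA pool were compared as well. mt-Co1 held 27.8%, 28.0%, 28.0%, 27.4% and 27.7% of the chrM mRNA counts in the CD brains of 12 months, and 26.4% to 27.2%, with a median of 27.0%, after the one-week KD. Every KD brain was below every CD brain, and mt-Co1 was the 1 member of 15 whose groups did not overlap on this scale, beside 0.358% of all genes. Shares sum to the whole, and the mean shares of mt-Nd5 (18.4% and 19.0%), mt-Nd2 (11.5% and 11.8%) and mt-Nd6 (2.76% and 2.89%) were higher on the KD, with overlapping groups. The fit on the same scale did not call mt-Co1 (log2 fold change -0.05, adjusted p = 1 from edgeR). On the usual scale mt-Co1 did not differ between these groups beyond their spread, at 6583 ± 294 CPM (SD, n = 5) on the CD and 6551 ± 296 (n = 7) on the KD. At 26 months the shares overlapped, with 25.7% to 27.5% for the CD and 25.6% to 27.5% for the KD. Summed hindbrain markers were at 0.487 to 16.4 CPM in the CD brains of 12 months and 1.36 to 45.7 CPM on the KD, and 6 of 6 had a log2 fold change above 0 (median 1.64). So had 5 of 5 oligodendrocyte markers (median 0.25) and 5 of 5 erythroid markers (median 0.57), while 0 of 5 choroid plexus markers had (median -0.52). None of these markers was called, and their part in the mitochondrial values was not tested.

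With age, 1 of the 15 chrM genes rose in the CD brains, beside 1.26% of all genes called in either direction. This gene was mt-Tp. Its level was 12.6, 11.2, 13, 11.8 and 11.8 CPM in the 5 brains of 12 months and 13.7 to 22 CPM, with a median of 17.1, in the 8 of 26 months. Each of the 8 old brains was above each of the 5 younger ones, a log2 difference of 0.53 with an SE of 0.13 (edgeR adjusted p = 0.0366). mt-Nd6 was the other member whose groups did not overlap, at 632 to 686 CPM and 689 to 775 CPM, beside 1.27% of all genes. Its fold change was 0.15 (SE 0.05) and it did not pass the test (adjusted p = 0.12 from edgeR). mt-Tp and mt-Nd6 both lie on the minus strand, as do mt-Tc and mt-Te.

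Both genes were also read in the KD groups. On the one-year KD, mt-Tp was at 15.4 to 22.1 CPM with a median of 19.7, so all 16 brains of 26 months were above all 5 CD brains of 12 months. After the one-week KD it was at 9.85 to 21 CPM with a median of 13, and replicate 17, at 21 CPM, was the only brain of 12 months above 13.6 CPM. mt-Nd6 was at 687 to 810 CPM on the one-year KD and at 655 to 754 after the one-week KD, which overlapped the older brains. No test was set on these counts beyond the comparisons named here.

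**Figure D3:**
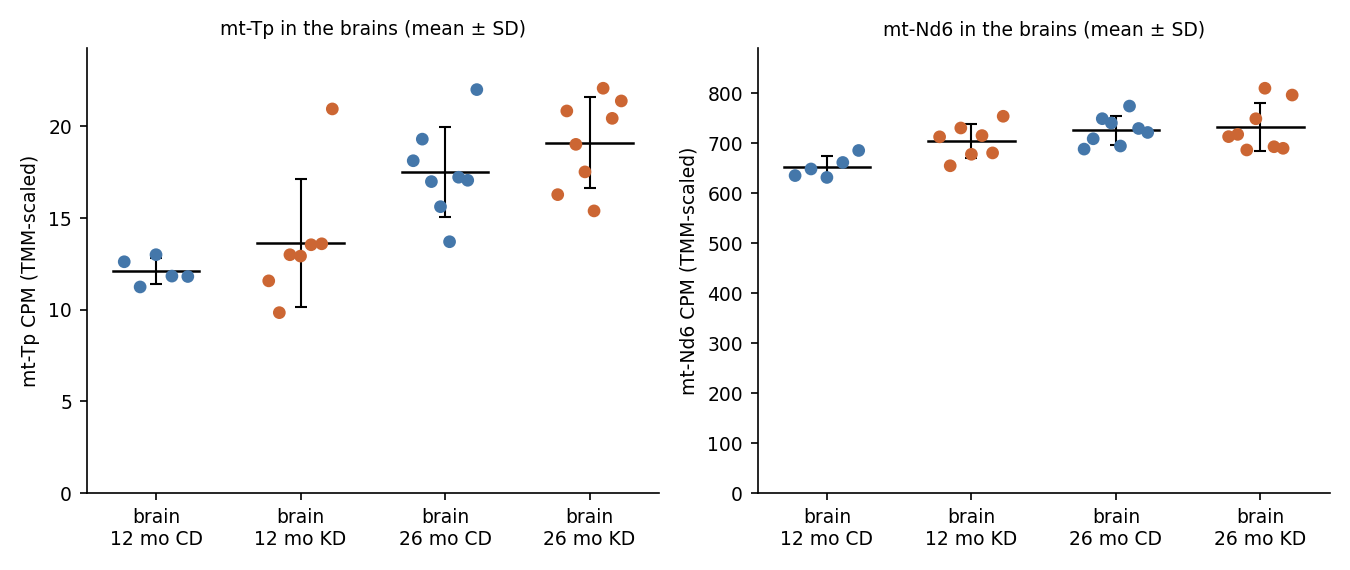
CPM of mt-Tp (left) and mt-Nd6 (right) in the brains, scaled by TMM, 1 point per library, with the mean and SD of each group (n = 5, 7, 8 and 8 from left to right). For mt-Tp the 26-month CD brains, at 13.7 to 22 CPM, lie above the 12-month CD brains, at 11.2 to 13, and 1 brain of the one-week KD reaches 21.

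The call of mt-Tp was close to its threshold. Leaving out 1 of the 13 CD brains at a time gave adjusted p from 0.0242 to 0.101 and log2 fold changes of 0.48 to 0.58, and the call was kept in 4 cases, without 26-month CD replicate 1, 4, 5 or 7. It was lost in the other 9: without any 12-month CD brain (replicate 1, 4, 7, 13 or 16; log2 fold changes 0.55, 0.52, 0.56, 0.52 and 0.52) and without 26-month CD replicate 2, 3, 6 or 8 (0.51, 0.54, 0.54 and 0.48). Without the brains high in Gm10800 it was 0.58 with an SE of 0.13 (edgeR adjusted p = 0.0223). Scaled to the summed chrM mRNAs it was 0.44 with an SE of 0.14 (edgeR adjusted p = 0.101), where the groups overlapped, and without a filter 0.49 with an SE of 0.13 (edgeR adjusted p = 0.0817), and neither kept the call. The brains of 26 months that are low in Gm10800 still had more Gm10800 than all those of 12 months. They also had more genes with a count, at 31438 to 41017 against 30019 to 31181 in the brains of 12 months. Since age and these signs of the libraries run together, they cannot be told apart here. Cell type markers moved as well. All 5 erythroid markers had a log2 fold change above 0 with age (median 1.12), with summed levels of 78.6 to 132 CPM at 12 months and 96.4 to 369 at 26 months. So did all 5 oligodendrocyte markers (median 0.44), at 2569 to 3936 and 3518 to 5351 CPM, and 5 of 6 hindbrain markers (median 0.47), at 0.487 to 16.4 and 1.79 to 26.8 CPM, of which 1 was called. All 5 choroid plexus markers were below 0 (median -0.74). Of the other lists, 1 neutrophil and 1 astrocyte marker were called higher and 1 marker of the hepatocyte list lower. No defining marker of these lists was at 0 in every library, and their part in the mt-Tp value was not tested.

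The other members in aging had smaller or less certain values. The 7 mRNAs had log2 fold changes of 0.05 to 0.15 (median 0.09, beside -0.00 over all genes), with 7 of 7 above 0 on the usual scale. When scaled to the summed chrM mRNAs, mt-Nd2, mt-Co1 and mt-Cytb were below 0. That scaling sets the 7 against their own sum, so it does not test their level. mt-Nd5 and mt-Nd1 were at 0.15 (SE 0.05) and 0.13 (SE 0.05). mt-Tc stood at -0.77 (SE 0.38; edgeR adjusted p = 0.42), from 9 to 17 counts per library at 12 months to 5 to 12 at 26 months. mt-Nd3 was at 0.81 (SE 0.31) on 2 to 19 counts per library and mt-Co3 at -0.17 (SE 0.30), both among the mRNAs with nuclear copies. mt-Tm, mt-Tv, mt-Rnr1 and mt-Rnr2 were at 0.03 (SE 0.14), -0.47 (SE 0.39), -0.55 (SE 0.60) and -0.48 (SE 0.59).

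No nuclear list gene was called with age. Tfam was at 22.8 ± 2.73 CPM in the CD brains of 26 months (SD, n = 8) and 21.5 ± 1.13 at 12 months (n = 5), a log2 fold change of 0.09 (SE 0.09). Polrmt stood at 0.01 (SE 0.08) and Twnk at -0.13 (SE 0.11). The smallest p was that of Trmt10c, a subunit of the enzyme that cuts the 5′ ends of mitochondrial tRNAs, at 11.8 ± 1.25 CPM against 9.70 ± 1.01 (0.28, SE 0.09, adjusted p = 0.13 from edgeR). Hspe1, the mitochondrial co-chaperonin, was at 0.27 (SE 0.09), Mgme1 at 0.35 (SE 0.14), Fastkd3 at 0.17 (SE 0.07), Esrrg at 0.33 (SE 0.15), Vdac3 at 0.14 (SE 0.06) and Tefm at 0.24 (SE 0.13). The others named by the rule of 3 per list were Mterf3, Lig3, Polg, Fastk, Qtrt1, Trit1, Trmt61b, Gabpa, Ppargc1a, Tomm20, Gm28661, Gm28439 and Gm28437, within the range of log2 fold changes from -0.18 to 0.35 that held for all of them. Of the tested list members, 8 of 11 in transcription, 7 of 13 in replication, 14 of 21 in RNA processing, 10 of 15 in modification, 4 of 10 in biogenesis, 13 of 16 in mitochondrial mass and 4 of 7 nuclear copies were above 0, with medians from -0.03 to 0.06.

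One year of cyclic KD left the mitochondrial genes of the brain within their spread. By edgeR, 0 of the 15 were called, beside 0% of all genes, and 0 of the 15 and 999 of all genes had an unadjusted p under 0.05. DESeq2 and limma also called 0. The 7 mRNAs had log2 fold changes of -0.01 to 0.07, with intervals from -0.10 to 0.17 in all. mt-Nd1, for one, was at 3471 to 3946 CPM on the CD (median 3659) and 3258 to 4159 on the KD (median 3717), with the KD brains spread on both sides of the CD range. mt-Tp stood at 0.13 (SE 0.11), mt-Tm at 0.22 (SE 0.13), mt-Tc at 0.56 (SE 0.35), mt-Tv at 0.32 (SE 0.36), mt-Rnr1 at 0.10 (SE 0.53) and mt-Rnr2 at 0.18 (SE 0.52).

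The effects of the one-year and the one-week KD were also compared directly. The difference gave 0 of the 15 called, beside 0% of all genes, by edgeR, DESeq2 and limma, and 0 of the 15 at an unadjusted p under 0.05 beside 998 of all genes. The 7 mRNAs differed by -0.10 to 0.04 on the log2 scale, with intervals from -0.23 to 0.18. Tfam, Polrmt and Twnk had log2 fold changes of 0.10 (SE 0.09), 0.10 (SE 0.09) and 0.01 (SE 0.11) after one week, and -0.07 (SE 0.07), 0.08 (SE 0.07) and 0.21 (SE 0.10) after one year, with differences of -0.16 (SE 0.12), -0.02 (SE 0.11) and 0.21 (SE 0.15). No gene of the 7 lists was called in these comparisons. After one week the list members with the smallest p, led by Timm23, Esrrg, Ppara and Trit1, lay between -0.43 and 0.31, and after one year, led by Gm28437, Twnk, Ppargc1a and Ssbp1, between -0.40 and 0.24.

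Between liver and brain, 1 mitochondrial gene passed the test in all 16 CD libraries, and more did without 4 of the livers. In the CD mice of 26 months, 1 of the 12 chrM genes tested differed between liver and brain, beside 77% of all 20463 genes. This gene was mt-Tc, at 1.07 to 3.75 CPM in the 8 livers (median 1.62) and 0.412 to 0.938 CPM in the 8 brains (median 0.611) on the scale of this fit. The groups did not overlap, as for 50.6% of all genes, and liver exceeded brain by 1.66 on the log2 scale with an SE of 0.33 (edgeR adjusted p = 2.2e-04). The counts behind it were low, 13 to 37 per liver and 5 to 12 per brain. The call held when each of the 16 libraries was left out, with log2 fold changes of 1.5 to 1.79. Without the libraries high in Gm10800 mt-Tc was at 1.53 (SE 0.35, adjusted p = 0.0011 from edgeR). CD livers 3, 5, 6 and 7, high in Kupffer cell markers, were the lowest of the livers in mt-Tc, at 1.07, 1.32, 1.2 and 1.13 CPM.

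The 7 mRNAs had log2 fold changes of 0.09 to 0.35 between liver and brain, with intervals from -0.38 to 0.96 in all and adjusted p of 0.16 to 0.72 from edgeR. With total counts alone mt-Nd1 and mt-Nd4 were lower in the liver, so the sign of these genes was not firm. They were also lower when scaled to the summed chrM mRNAs, which sets the 7 mRNAs against one another. Without the 4 livers high in Kupffer cell markers, left out after the values were seen, 10 of the 13 chrM genes then tested were called higher in the liver, beside 35.1% of all 22415 genes called higher and 78.6% called in either direction. They were mt-Tc at 2.23 (SE 0.26), mt-Tp at 0.94 (SE 0.14), mt-Tm at 0.42 (SE 0.16) and all 7 mRNAs at 0.56 to 0.95, with a median of 0.82 beside -0.23 over all genes. Since these 4 livers were also those with the lowest mitochondrial shares, such calls describe the 4 remaining CD livers, and the part of cell makeup was not tested. Within the mRNA pool, mt-Nd1 held 11.6% to 14.1% of the chrM mRNA counts in the CD livers and 14.3% to 14.8% in the CD brains. It was 1 of 2 members, of the 12 tested with all 16 libraries, whose groups did not overlap on this scale. The share over all genes on this scale is not given here, and in CPM it was 50.6%, so this separation is not read as particular to mt-Nd1. In the fit of all 16 libraries mt-Tp stood at 0.27 (SE 0.33), mt-Tm at 0.14 (SE 0.16), mt-Rnr1 at 0.42 (SE 0.50) and mt-Rnr2 at 0.45 (SE 0.47).

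Of 86 tested nuclear genes in the 6 functional lists, 60 (69.8%) were called between liver and brain, beside 77% of all genes, with 36% of all genes higher in the liver and 41% lower. Of 13 genes of replication and nucleotide supply, 11 were higher in the liver and 1 lower, and Twnk was at 28.8 ± 16.2 CPM in the liver and 8.98 ± 1.33 in the brain (SD, n = 8 each; log2 difference 1.68 with an SE of 0.31, and edgeR adjusted p = 1.1e-04). Rrm2b, a ribonucleotide reductase subunit for resting cells, was the lower one at -1.44 (SE 0.17), while Primpol and Dguok were at 1.29 (SE 0.22) and 0.56 (SE 0.10). Of 11 genes of transcription 4 were higher and 1 lower. Tfam was at 0.44 (SE 0.18, adjusted p = 0.0345 from edgeR), Mrpl12 at 1.55 (SE 0.24), Tefm, the elongation factor, at 0.96 (SE 0.14) and Mterf2 at -1.55 (SE 0.22), while Polrmt, at 0.08 (SE 0.17), did not pass.

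The other lists are read against the same shares. There, 12 of 21 genes of RNA processing were higher and 4 lower, with Hsd17b10 at 2.53 (SE 0.30), Tbrg4 at 0.76 (SE 0.12) and 1110008L16Rik at 1.09 (SE 0.19). Of 15 modifying enzymes 3 were higher and 5 lower, with Nsun4, Qtrt1 and Pus1 at 0.95 (SE 0.16), -0.75 (SE 0.13) and 0.76 (SE 0.14). Of 10 biogenesis regulators 6 were higher and 3 lower. Ppara, the fatty acid sensor of hepatocytes, was at 5.71 (SE 0.52), Gabpa at 1.25 (SE 0.12) and Ppargc1a at -2.08 (SE 0.26). Of 16 genes on the mitochondrial mass list 7 were higher and 3 lower, with Tomm20, an import receptor, at -2.23 (SE 0.14), Phb2 at 1.92 (SE 0.18) and Cpt2, of fatty acid import, at 4.13 (SE 0.42). Of the 5 tested nuclear copies 0 were called, with Gm28439, Gm28661 and Gm29216 at 0.26 (SE 0.30), -0.14 (SE 0.23) and -0.08 (SE 0.23).

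In mt-Nd2, CD libraries numbered 3 and 6 were lowest in both tissues, and the KD numbers showed no such match. Its share of the chrM mRNA counts was 10.2% in CD brain 3 and 10.7% in CD brain 6, against 11.7% to 12.0% in the other 6 CD brains of 26 months. In the livers the lowest shares were also in CD replicates 3 and 6, at 9.20% and 9.77%, while the other 6 of that diet held 11.2% to 13.2% and the KD livers 12.6% to 13.7%. The ratio of mt-Nd2 to mt-Nd1 counts was 0.693 and 0.739 in brains 3 and 6 and 0.678 and 0.692 in livers 3 and 6, while the rest of the CD group had 0.794 to 0.841 in the brain and 0.851 to 1.14 in the liver. Among the KD libraries the brain shares were 11.4% to 12.4%, and number 14 was highest in the brain at 12.4% and lowest in the liver at 12.6%. These libraries were picked for their values, so no test was set on them. Livers 3 and 6 were among the 4 high in Kupffer cell markers, and livers 5 and 7, also high in them, had shares of 11.3% and 11.2%. Summed neutrophil markers were at 975 and 1225 CPM in livers 3 and 6, and at 138 and 204 in livers 5 and 7. In CD brains 3 and 6 they were at 16.1 and 28.4 CPM, beside 12.8 to 17.3 in the other CD brains of 26 months. The part of these markers in the mt-Nd2 share was not tested, and whether libraries of one number share a mouse is not stated.

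**Figure D4:**
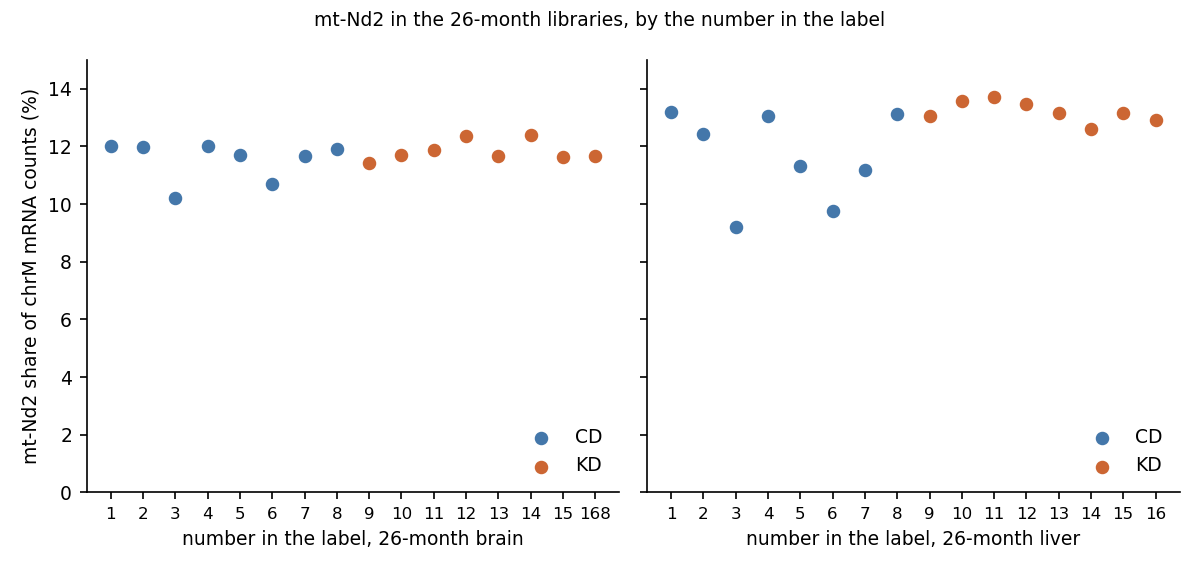
Share of mt-Nd2 in the chrM mRNA counts (%) in brains (left) and livers (right) of 26 months, by the number in the label and coloured by diet. CD numbers 3 and 6 are lowest in both tissues, at 10.2% and 10.7% in the brain and 9.20% and 9.77% in the liver.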

How the data were processed

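RNA of 28 whole brains and 16 livers was sequenced after rRNA removal. The paper states that reads were trimmed with Trimmomatic, aligned to GRCm38 from an Ensembl archive with STAR and counted with RSEM. Tool versions and the strand and multi-mapping settings are not given in the sources used here. The deposited counts are whole numbers under a name that holds STAR, so whether RSEM made them is not settled. The deposited table holds raw counts, which the authors had not normalized. Symbols came from GENCODE M21, which held 54409 of the 54446 identifiers.

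Groups follow the labels, which name no batch. They do not state whether samples were pooled, and p-values measure the spread between the samples. Genes were filtered with filterByExpr, scaled by TMM and tested with the quasi-likelihood F test of edgeR 4.0.16 in R 4.3.3, with Benjamini-Hochberg adjustment over all genes tested, in 1 fit of the livers, 1 of the brains and 1 of both tissues on the CD at 26 months. Genes were called at an adjusted p under 0.05. CPM are scaled by TMM, and levels per kb use total counts. Windows of 50 and of 100 bases of chrM transcripts were looked up in all other transcripts of GENCODE M21, on both strands. The pipeline was tested on simulated data.

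The mitochondrial genes, the marker and nuclear gene lists and the limits for Gm10800 were chosen with earlier results of these data known. All 13 mRNAs and 2 rRNAs are named, the tRNAs that passed the filter, Tfam, Polrmt and Twnk, and, per list and comparison, the 3 genes of smallest p. Alternatives were DESeq2 1.42.0, limma 3.58.1 with sample quality weights, 4 other scalings, 2 other filters, the 2 groups alone, a replicate block, fits without libraries high in Gm10800 and each library left out. A fit without the 4 livers over 2000 CPM of summed Kupffer cell markers was added after seeing the data. Python 3.11.15, pandas 2.3.3 and matplotlib 3.10.9 made tables and figures.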

Additional observations from a re-analysis of the deposited data

Results flagged for a closer look

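Each of the 138 sets of a measure in a group was searched for a library far from the others by Dixon's criterion, which chance alone meets in about 1 set in 20, and 7 met it. In the one-week KD brains, replicate 10 was high in both rRNAs, with mt-Rnr1 at 841 CPM against 70.7 to 170 in the other 6 and mt-Rnr2 at 1053 CPM against 87.2 to 209. In the one-year KD brains replicate 15 was high in the same genes, with mt-Rnr1 at 660 CPM against 73.3 to 193 and mt-Rnr2 at 887 CPM against 98.0 to 256. Replicate 14 of the one-year KD brains had a ratio of mt-Rnr2 to mt-Rnr1 counts of 1.60 against 1.32 to 1.39. Replicate 17 of the one-week KD brains had mt-Tp at 21 CPM against 9.85 to 13.6, which is as high as in the brains of 26 months. In the KD livers, replicate 13 had an mt-Co1 share of 29.6% of the chrM mRNA counts against 26.3% to 27.4%.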

How the results depend on the processing

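In liver on the one-year KD and in brain after the one-week KD, after the one-year KD and for their difference, 0 chrM genes were called under every alternative run, though without the livers high in Kupffer cell markers the 7 mRNAs of the liver turned from above to below 0. In brain aging the count of 1 became 2 with DESeq2 (mt-Tp and mt-Nd6) and with limma (mt-Tp and mt-Nd3), 3 with total counts alone (mt-Tp, mt-Nd5 and mt-Nd6), and 0 when scaled to the summed chrM mRNAs, without a filter, and with the replicate block. Leaving out 1 library at a time gave 0 to 1. In liver against brain the count of 1 became 3 without a filter (mt-Tc, mt-Nd3 and mt-Te), 0 with at least 10 counts in every library, where mt-Tc was not tested, 2 with the replicate block (mt-Tc and mt-Nd3), and 10 without the livers high in Kupffer cell markers, a setting added once the data had been seen. The replicate block treats equal numbers as pairs. Correlations of same-numbered libraries were -0.25 to 0.22 in aging and -0.03 to 0.09 between tissues. In aging, a library correlated best with its own number in 0 of 3 cases, and best or second best in 1 of 3. Between tissues this held in 3 of 8 and 5 of 8 cases, and whether these ranks exceed chance was not tested. Whole brains of different ages cannot come from the same mouse. Whether a brain and a liver of equal number share a mouse is not stated, and equal numbers were not used as pairs in the main fits. In aging, the block fit kept only the brains numbered 1, 4 and 7, the numbers found at both ages. On these fewer brains mt-Tp stood at 0.46 (edgeR adjusted p = 0.29). The causes of the other changes were not tested. The summed mitochondrial level kept its direction on both other denominators. Low counts limit the tRNAs and the 6 mRNAs with few counts, and the spread between livers limits the liver.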
